A study of Mus musculus with 6 samples.

Results

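The genes described here encode a part of the proteins of the cytosolic ribosome, with some paralogues, in mouse liver. Members were the probe sets that carry exactly 1 gene symbol, where that symbol is Rpl or Rps with a number of at most 2 digits and at most 1 closing letter a, x, l or y, or is Rplp0, Rplp1, Rplp2 or Rpsa. Genes of the S6 kinases and pseudogene symbols were left out. The rule found 100 of 45037 probe sets, and they stand for 46 of 18193 genes. A further 110 probe sets list a ribosomal protein symbol beside other symbols and are left out. The members are therefore not the full set of either subunit. After a filter on low levels 43 of the 46 were among 14071 genes tested. Livers came from male mice of the inbred strain C57BL/6 given either a high-fat diet, with 60% of calories from fat, or a normal diet. Both diets began at 8 weeks of age and lasted 12 weeks, and the labels name no genetic change in either group. Each diet had 6 mice, whose RNA was pooled by 2, and each pool is taken as the sample of 1 Affymetrix Mouse Genome 430 2.0 array, which gives n = 3 arrays per diet. No label says that pools were extracted separately, so p-values measure only the spread between these arrays and not between single mice. Precision is limited by having 3 arrays a diet.

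The cytosolic ribosome translates nearly all messenger RNA of a cell. Its small (40S) and large (60S) subunits each join ribosomal RNA to many different proteins, most of them present once per ribosome. Messenger RNAs of these proteins typically begin with a cytosine followed by a run of pyrimidines, the terminal oligopyrimidine (TOP) motif, through which the kinase complex mTORC1 controls their translation. A liver cell can therefore change the output of these genes without a change in their messenger RNA, and an expression array measures the messenger RNA only. Ribosomal protein genes also have many processed pseudogenes with nearly the same sequence, so probes for them can pick up more than 1 transcript.

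Start regions of member genes were compared first, since the TOP motif lies at the start of the transcript. RefSeq (assembly GRCm38.p6) gave windows for 40 of the 46 genes, 48 windows in all, from 250 bases before to 50 bases after a start. A cytosine followed by at least 4 pyrimidines began exactly at the annotated start in 8 windows (16.7%), against 2.51% of all 32851 windows of the same table. Within 3 bases before to 8 bases after the start, 15 member windows held it (31.2%, against 11.5% of all windows). Start regions are shown here from 60 bases before to 20 bases after the start for 5 genes with the tract and for the 4 genes of high signal whose arrays did not overlap between the diets, which are described further on. Capitals mark the tract where it begins at the start. Rps6 lies at chr4:86857348-86857427, Rps18 at chr17:33955646-33955725, Rps10 at chr17:27635225-27635304 and Rpl35 at chr2:39005112-39005191, all on the minus strand. Rpl38 lies at chr11:114668520-114668599, Rpsa at chr9:120127706-120127785, Rps9 at chr7:3703981-3704060 and Rps27l at chr9:66946026-66946105 on the plus strand, and Rps26 lies at chr10:128626487-128626566 on the minus strand. Rps27l has a further annotated start downstream that is not printed.
Rps6: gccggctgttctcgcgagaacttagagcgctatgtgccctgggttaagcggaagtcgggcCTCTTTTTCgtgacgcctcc
Rps18: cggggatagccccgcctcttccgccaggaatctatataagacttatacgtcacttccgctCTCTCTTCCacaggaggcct
Rps10: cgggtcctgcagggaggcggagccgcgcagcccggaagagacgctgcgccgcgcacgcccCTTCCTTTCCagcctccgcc
Rpl35: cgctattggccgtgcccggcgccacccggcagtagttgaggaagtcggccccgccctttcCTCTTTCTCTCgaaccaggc
Rpl38: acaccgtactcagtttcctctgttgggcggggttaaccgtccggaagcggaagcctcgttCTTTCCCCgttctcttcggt
Rpsa: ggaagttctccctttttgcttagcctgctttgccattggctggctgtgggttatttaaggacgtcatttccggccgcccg
Rps26: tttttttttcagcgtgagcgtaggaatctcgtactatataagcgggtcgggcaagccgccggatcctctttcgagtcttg
Rps9: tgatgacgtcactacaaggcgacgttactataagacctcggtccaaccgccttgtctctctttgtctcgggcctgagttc
Rps27l: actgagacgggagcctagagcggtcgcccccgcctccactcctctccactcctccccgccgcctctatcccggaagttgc

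In these 9 windows the tract begins at the start in Rps6, Rps18, Rps10, Rpl35 and Rpl38 and does not in Rpsa, Rps26, Rps9 and Rps27l. The former were printed for having the tract, so the 9 windows do not compare the genes in this respect. Rps9 and the printed window of Rps27l are among the 15 that hold it near the start, and Rpsa and Rps26 are not. The other genes with a tract exactly at the start were Rpl14, Rps27 and Rplp2. The letters CCGGAAG, searched on both strands over the whole window as the core of an ETS factor motif, occurred in 20 member windows (41.7%, against 8.86% of all windows). GGGCGG, the core of the GC box, occurred on either strand in 24 (50%, against 35.7%), and AAGATGG, the core of the YY1 motif, in 7 (14.6%, against 6.34%). The motifs can overlap, and a match describes the letters only.

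None of the 43 tested ribosomal protein genes differed between the diets at an adjusted p below 0.05 (limma with Benjamini-Hochberg adjustment over all genes tested, 0 of 43), while 7.6% of all tested genes did (5.87% higher and 1.73% lower in high-fat livers). Among genes with a mean level of at least 11, 10.6% were called, and 0 of 32 member genes. At an unadjusted p below 0.05 there were 2 member genes, Rpl12 and Rpsa, which is 4.65% of them against 27.6% of all genes. Differences were small on both sides of 0. The median high-fat minus normal diet difference was -0.03 on the log2 scale for member genes and 0.00326 for all genes. The median size of a difference, whatever its sign, was 0.0955 for member genes and 0.192 for all genes. Most genes have a lower level than the members. At a mean level of at least 11 the median was -0.028 for 32 member genes and 0.060 for all 358 genes. The median sizes at that level were 0.055 and 0.179. Of the 43, 13 had a positive and 30 a negative difference. The sign of the median depended on scaling: it was -0.16 after cyclic loess and -0.04 after quantile normalization, and 0.01 after median centring and 0.02 with array weights. With normal diet 2 left out it was -0.12, and with normal diet 3 left out it was 0.03.

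How large a change could have been missed is given by the intervals. The 95% confidence interval of every tested member lay within 1 log2 unit of 0 on both sides, the lowest bound being -0.95 for Rps4l and the highest 0.92 for Rps6. For 35 of the 43 the interval lay within 0.5 log2 units of 0, and this held for 29 of the 32 member genes with a mean level of at least 11. In livers of this kind a smaller or larger share of a cell type and a change of RNA per cell cannot be told apart.

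**Figure D1:**
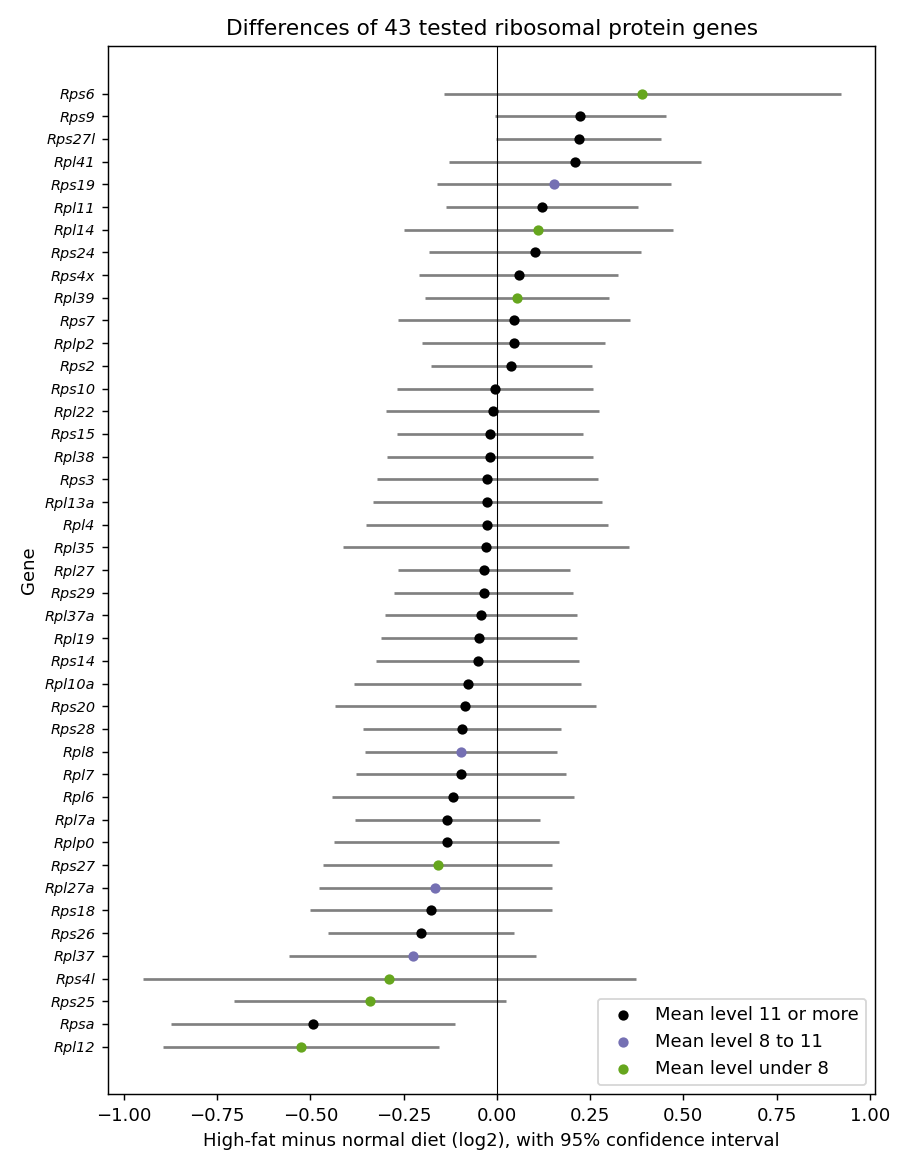
Difference of each tested ribosomal protein gene between high-fat and normal diet livers (x axis, log2; points are limma's estimates, lines their 95% confidence intervals, n = 3 arrays per diet), with genes down the page from the most positive to the most negative. Rps6 is at the top with 0.39 and Rpl12 at the bottom with -0.53, and colours give the mean level of the probe set.

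Among proteins of the small subunit, 21 genes were tested, with a median difference of -0.03. Rpsa, which also goes by the name of laminin receptor, had the largest difference among member genes of high signal. Its level was 11.11, 11.21 and 11.33 in high-fat livers, against 11.72, 11.40 and 12.01 in normal diet livers. All high-fat arrays lay below all normal diet arrays. The difference was -0.49 ± 0.16 (SE, n = 3 arrays per diet), 1.41-fold lower, with a 95% confidence interval from -0.87 to -0.11 and a limma adjusted p of 0.106. Rpsa passed the threshold without normal diet 2 (-0.65, limma adjusted p = 0.0453). It was at -0.34 without normal diet 3 and at -0.28 with the mean of its probe sets. That mean takes in a second probe set below the filter, with a mean level of 2.75 and a difference of -0.07. Set against the median of the other member genes of the same array, Rpsa stood at -0.70, -0.58 and -0.54 in high-fat livers and at -0.05, -0.25 and -0.08 in normal diet livers, again with no overlap.

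Rps27l, a paralogue of Rps27 known as a target of p53, lay on the other side. It had 11.81, 11.79 and 11.87 in high-fat livers and 11.65, 11.65 and 11.51 in normal diet livers. The arrays did not overlap, and the difference was 0.22 ± 0.09 (SE), with a limma adjusted p of 0.184. All 3 probe sets of Rps27l gave differences of this size, between 0.18 and 0.22. Over the alternative settings the difference ran from 0.09 after cyclic loess to 0.27 after median centring, and Rps27l was not called in any. Rps9, a protein of the early-assembling part of the small subunit, had 11.41, 11.43 and 11.45 in high-fat livers, against 11.11, 11.20 and 11.31 in normal diet livers. These did not overlap either (0.22 ± 0.10, limma adjusted p = 0.188). Another probe set of Rps9, with a mean level of 9.91, gave -0.04.

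Rps26 had 11.36, 11.37 and 11.41 in high-fat livers, against 11.52, 11.48 and 11.75 in normal diet livers, with every high-fat array lower (-0.20 ± 0.11, limma adjusted p = 0.256). Rps25 was measured by a probe set of low signal. Its level was 4.337, 4.287 and 4.552 in high-fat livers and 4.553, 4.598 and 5.045 in normal diet livers. High-fat 3 and normal diet 1 were nearly equal, and the groups had a difference of -0.34 ± 0.16 with a limma adjusted p of 0.206. Together with Rpl12, described with the large subunit, these were the 6 member genes whose arrays did not overlap, 14% of the 43 against 35.8% of all tested genes. Among genes with a mean level of at least 11 the shares were 12.5% of 32 member genes and 45.8% of 358 genes.

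Rps6, the classic substrate of the S6 kinases downstream of mTORC1, had the most positive difference, from a probe set of moderate signal. It had 6.48, 6.61 and 6.86 in high-fat livers, against 6.43, 6.60 and 5.74 in normal diet livers. The groups overlapped, and only normal diet 3 lay well below the rest (0.39 ± 0.23, limma adjusted p = 0.300). Rps4l, a mouse paralogue of the X-linked Rps4x, varied most among the high-fat arrays, with 6.85, 7.15 and 8.03, against 7.71, 7.74 and 7.44 in normal diet livers. Its difference of -0.29 ± 0.28 came with the widest interval of all members. Rps4x itself differed by 0.06 ± 0.11.

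Several further small subunit genes are widely used landmarks. Rps18, often used as a reference gene, differed by -0.18 ± 0.14, with 12.06, 12.11 and 12.23 in high-fat livers and 12.39, 12.04 and 12.50 in normal diet livers. Rps19, the gene most often mutated in human Diamond-Blackfan anaemia, differed by 0.15 ± 0.13, Rps24 by 0.10 ± 0.12 and Rps27 by -0.16 ± 0.13. Rps3, a protein of the messenger RNA entry site, differed by -0.03 ± 0.13. The brightest probe sets of the small subunit, those of Rps29 and Rps2, averaged 12.55 ± 0.06 and 12.43 ± 0.06 in high-fat livers against 12.58 ± 0.11 and 12.39 ± 0.04 in normal diet livers (SD, n = 3 arrays per diet). Within each of these genes the groups overlapped.

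Among proteins of the large subunit, 22 member genes were tested, with a median difference of -0.04. Rpl12, a protein at the base of the ribosomal stalk, had the most negative difference of all members, from a probe set of low signal. Its level was 4.261, 4.110 and 4.001 in high-fat livers, against 4.330, 4.743 and 4.874 in normal diet livers. The groups did not overlap, although high-fat 1 and normal diet 1 lay close together. The difference was -0.53 ± 0.16 (SE), 1.44-fold lower, with a limma adjusted p of 0.0876. Without normal diet 1 it was -0.68 and passed the threshold (limma adjusted p = 0.0291). Its levels were close to the filter of the arrays, which lay between 3.48 and 3.59.

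The stalk proteins next to it, which recruit the elongation factors, were measured at high signal. Rplp0 had 11.74, 11.71 and 11.66 in high-fat livers and 11.69, 11.73 and 12.09 in normal diet livers (-0.13 ± 0.13). Rplp2 had 11.63, 11.66 and 11.72 in high-fat livers, against 11.54, 11.55 and 11.78 in normal diet livers (0.05 ± 0.10). Both overlapped. Rpl11, which together with Rpl5 binds the p53 regulator Mdm2, differed by 0.12 ± 0.11, and Rpl13a, known for silencing of inflammatory messenger RNAs in human monocytes, by -0.03 ± 0.13. Rpl41, which encodes a very short basic peptide, had 12.47, 12.49 and 12.76 in high-fat livers, against 12.18, 12.31 and 12.61 in normal diet livers (0.21 ± 0.14). Rpl37 differed by -0.23 ± 0.14, Rpl27a by -0.16 ± 0.13, Rpl14 by 0.11 ± 0.15 and Rpl39 by 0.05 ± 0.11. None of these was called.

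Tissue-restricted paralogues were near background. Rpl3l, the heart and skeletal muscle paralogue of Rpl3, was at 2.78, 2.64 and 2.59 in high-fat livers and 2.69, 2.85 and 2.84 in normal diet livers. Rpl39l, a paralogue of Rpl39 known from testis, was between 2.65 and 2.88 in high-fat livers and between 2.55 and 2.76 in normal diet livers. Both, and Rps16 with its single named probe set at a mean level of 2.52, did not pass the filter. Rplp1, Rps27a, Rpl3, Rpl5, Rpl10, Rpl10l and Rpl26 were not analysed here.

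**Figure D2:**
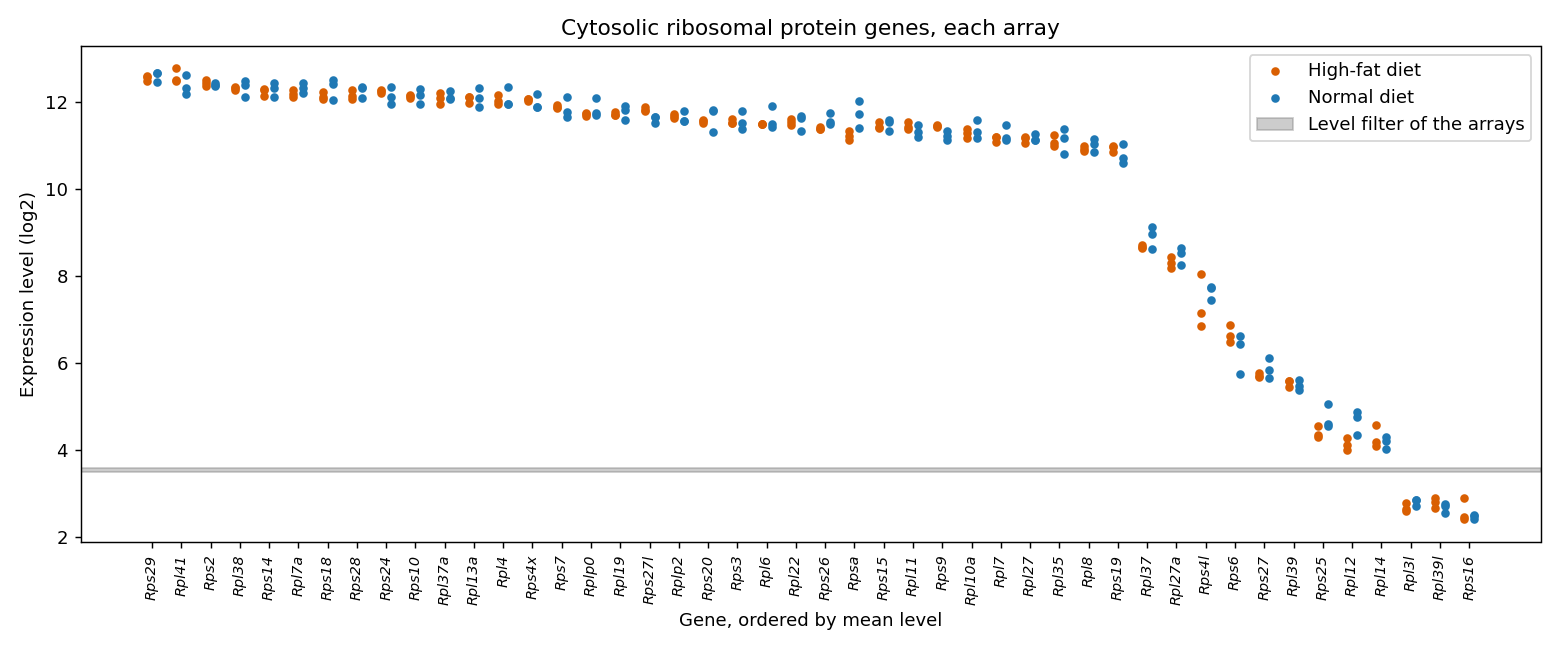
Level of each of the 46 ribosomal protein genes in each array (y axis, log2 RMA signal), with high-fat arrays left of normal diet arrays for every gene and the grey band marking the level filter of the 6 arrays. The brightest probe set is that of Rps29 with a mean of 12.56, and Rpl3l, Rpl39l and Rps16 lie below the filter.

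The level of a probe set cannot be read as the amount of a gene's messenger RNA. The order of the genes by level is an order of probe set signal only. Probe sets for the same gene were far apart: the 6 of Rps18 had mean levels from 2.60 to 12.22, and those of Rps24 from 2.96 to 12.19. By the ending of their names, 40 of the 100 probe sets were of the kind whose probes can match other sequences (_x_at), with a median level of 11.50. A further 26 were of the kind that matches several transcripts of 1 gene (_a_at), with a median level of 11.51, 3 ended in _s_at, and 31 were of the plain kind (_at), with a median level of 4.39. At the level of probe sets, 0 of 89 tested members were called (limma), against 5.33% of all probe sets, and 5 were at an unadjusted p below 0.05, which is 5.62% against 24.7%. These were the probe sets of Rpl12 and Rpsa already given, 1 of Rpl22 and 2 of Rps3.

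The probe sets of Rpl22, a protein of the outer surface of the large subunit, differed among themselves. The brightest differed by -0.01 ± 0.12. A dimmer set had 7.54, 7.36 and 7.34 in high-fat livers, against 6.96, 7.07 and 6.98 in normal diet livers, which did not overlap (0.41 ± 0.10, limma adjusted p = 0.0662). This set was called after median centring (0.46, limma adjusted p = 0.0459). The 2 dimmer sets of Rps3 had differences of opposite sign. The dimmest had 4.16, 4.21 and 4.08 in high-fat livers against 4.71, 4.41 and 4.60 in normal diet livers (-0.42 ± 0.11). The other had 5.600, 5.578 and 5.605 in high-fat livers against 5.136, 5.203 and 5.499 in normal diet livers (0.32 ± 0.12). Neither was called, and the brightest set of Rps3 lay between them at -0.03.

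**Figure D3:**
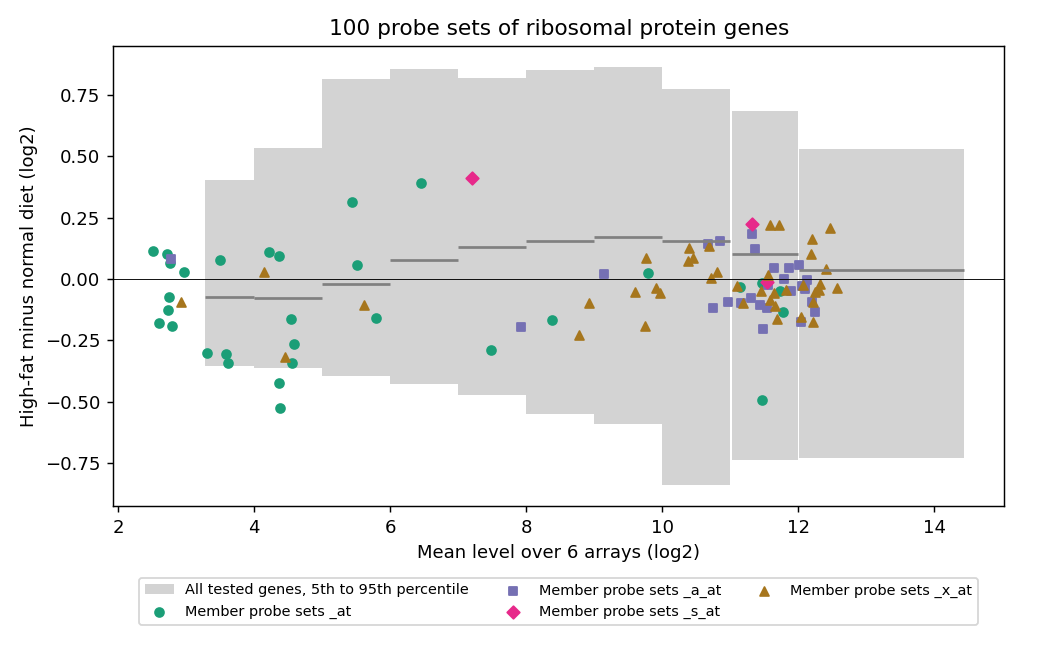
Difference between high-fat and normal diet livers (y axis, log2) against mean level (x axis, log2) for the 100 member probe sets, by the ending of their name, over a grey band from the 5th to the 95th percentile of all tested genes in bins of level, with the median as a line. Most member probe sets of high level lie within 0.25 of 0, and Rpsa stands below them at -0.49.

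Member genes shared a pattern across the arrays that did not follow the diet. Among the 32 with a mean level of at least 11, normal diet 3 was the highest of the normal diet arrays in 28 (87.5%), against 27.7% of all 358 genes of that level. Normal diet 2 was at the same time the lowest in 22 of them (68.8%, against 13.7%). The median deviation from a gene's own mean was -0.04, -0.01 and 0.03 in the high-fat arrays, against -0.01, -0.13 and 0.16 in the normal diet arrays. The other 326 genes of high level had a median deviation of -0.12 in normal diet 3, on the opposite side. In 23 of the 43 tested members all high-fat arrays lay within the range of the normal diet arrays (53.5%, against 17% of all tested genes). At a mean level of at least 11 this held for 18 of the 32 member genes (56.2%, against 23.5% of the 358). The median SD of a member gene was 0.07 in high-fat and 0.19 in normal diet livers, and that of all genes was 0.12 in high-fat and 0.17 in normal diet livers. All genes with a mean level of at least 11 were closer to the members, with 0.079 in high-fat and 0.170 in normal diet livers. Member genes of that level had 0.065 and 0.179.

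Rps27l went against this pattern and Rpsa exceeded it. Normal diet 3 was the array with the lowest Rps27l, 0.58 below the median of the other members, and the array with the highest Rpsa. Both genes, and the pattern itself, were singled out after their values were seen, and the shares are a description. The 3' minus 5' difference of the Gapdh control, a sign of RNA integrity, was -0.19, -0.04 and 0.01 in high-fat and 0.36, -0.03 and 0.01 in normal diet livers, so normal diet 1 was the highest array and normal diet 3 lay among the others.

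**Figure D4:**
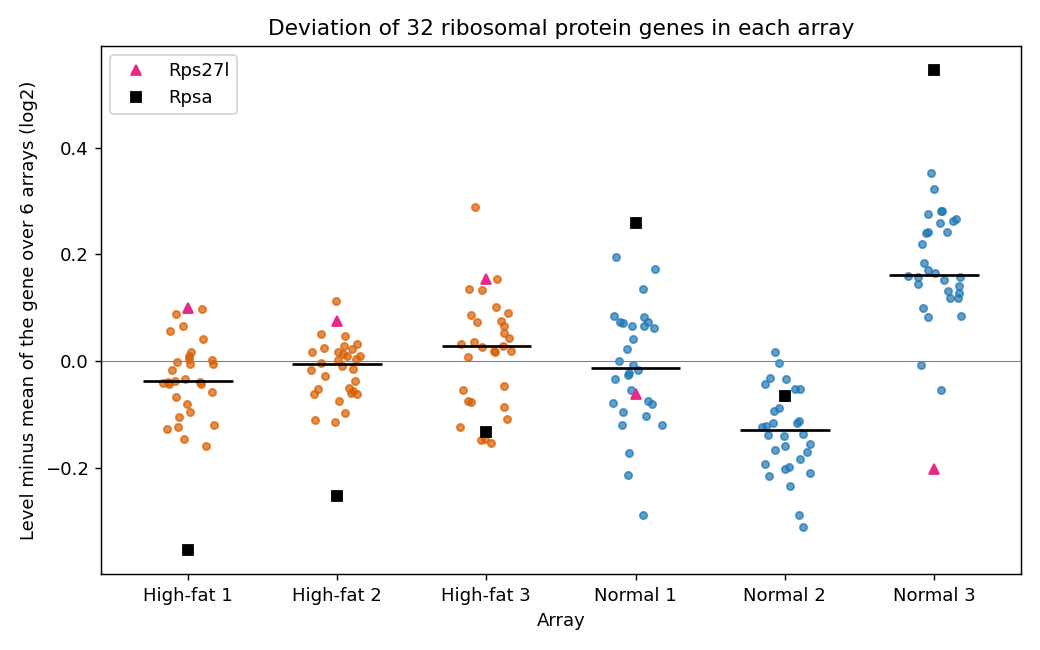
Deviation of 32 ribosomal protein genes from their own mean over 6 arrays (y axis, log2) in each array (x axis, high-fat arrays left of normal diet arrays), with bars at the median. Medians are -0.04, -0.01 and 0.03 in high-fat and -0.01, -0.13 and 0.16 in normal diet livers, and Rps27l (triangles) is lowest where Rpsa (squares) is highest.

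Genes that make or use ribosomes were set beside the ribosomal proteins. Of 49 tested genes of RNA polymerase I and ribosome biogenesis, 3 fell and 0 rose (limma), the median difference was -0.34 and 40 were negative. Nop2, a methyltransferase of ribosomal RNA, had 6.50, 6.47 and 6.49 in high-fat livers, against 6.90, 7.06 and 7.36 in normal diet livers (-0.62 ± 0.13, limma adjusted p = 0.0352). Gtpbp4, a GTPase of large subunit assembly, fell by 0.55 on the log2 scale and Gnl3, nucleostemin, by 0.68. All calls in this list were lower, 6.12% of it, against 1.73% of all genes called lower and 7.6% called in either direction. At an unadjusted p below 0.05 (limma) there were 20 of the 49, against 27.6% of all genes. The median level of this list was 6.95, and all tested genes with a mean level between 6 and 7 had a median difference of 0.08. None of the 49 was called without high-fat 1, 2 or 3 or without normal diet 2, while 9 were called without normal diet 1, and 6 with array weights. With each array left out in turn the median was negative, between -0.42 and -0.23.

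Proteins of the mitochondrial ribosome, a separate machine for the proteins encoded in mitochondrial DNA, had mostly positive differences, as did other genes of their level. Of 76 tested genes, 6 rose and 0 fell (limma), 59 were positive and the median difference was 0.16. The median level of the list was 8.37, and all tested genes with a mean level between 8 and 9 had a median difference of 0.15. All calls here were higher, 7.89% of the list, against 5.87% of all genes called higher and 7.6% called in either direction. At an unadjusted p below 0.05 (limma) there were 20 of the 76, against 27.6% of all genes. Mrps9 had 7.10, 7.07 and 6.83 in high-fat livers, against 6.36, 6.26 and 6.15 in normal diet livers (0.75 ± 0.12, limma adjusted p = 0.0128). Mrpl49 rose by 0.67 and Mrpl9 by 0.45. The balance of this list depended on scaling: after quantile normalization 42 of 76 were positive, the median was 0.02 and Mrps9 alone was called, and after cyclic loess 46 were positive, with a median of 0.04 and 2 calls. Without high-fat 1, 2 and 3, 0, 0 and 1 were called. Without normal diet 1, 2 and 3, 2, 2 and 4 were called.

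Other lists held few calls. Among 19 genes of translation elongation and further TOP messenger RNAs, Nap1l1, a histone chaperone whose messenger RNA carries the motif, rose by 0.74 ± 0.10 (limma adjusted p = 0.0111) but was not called without high-fat 2 or 3, and none fell. This is 5.26% of the list, against 7.6% of all genes. Its median difference was 0.12, and -0.01 after cyclic loess. The median level was 9.63, and all tested genes with a mean level between 9 and 10 had a median difference of 0.17. None of 21 initiation factors was called (limma, 0 of 21, with 2 at an unadjusted p below 0.05). Of all tested genes 7.6% were called (limma), so few calls would be found in 21 genes at that share. At an unadjusted p below 0.05 (limma) were 27.6% of all genes, a larger share than 2 of 21. Eif2b4, a subunit of the exchange factor of eIF2, had the smallest p of them with -0.62 ± 0.17 (limma adjusted p = 0.0737). It was called with array weights and without normal diet 1, where Eif5 was called as well. Of 21 genes of mTORC1 and ribosome control none was called either (limma, 4 at an unadjusted p below 0.05, beside the same shares of all genes). Myc, a transcription factor that drives ribosome production, had 5.94, 5.33 and 5.50 in high-fat livers, against 7.45, 6.42 and 6.41 in normal diet livers (-1.17 ± 0.30, limma adjusted p = 0.0586). Myc was called with array weights, after quantile normalization, with the replicate number as a block and without normal diet 1 or 3. Mtor, the kinase of the complex, differed by 0.67 ± 0.22 (limma adjusted p = 0.107). Of the ribosomal protein genes that the symbol rule leaves out, 4 were tested, and 0 were called by limma or were at an unadjusted p below 0.05. Fau, which encodes the small subunit protein S30, differed by 0.10 ± 0.11.

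**Figure D5:**
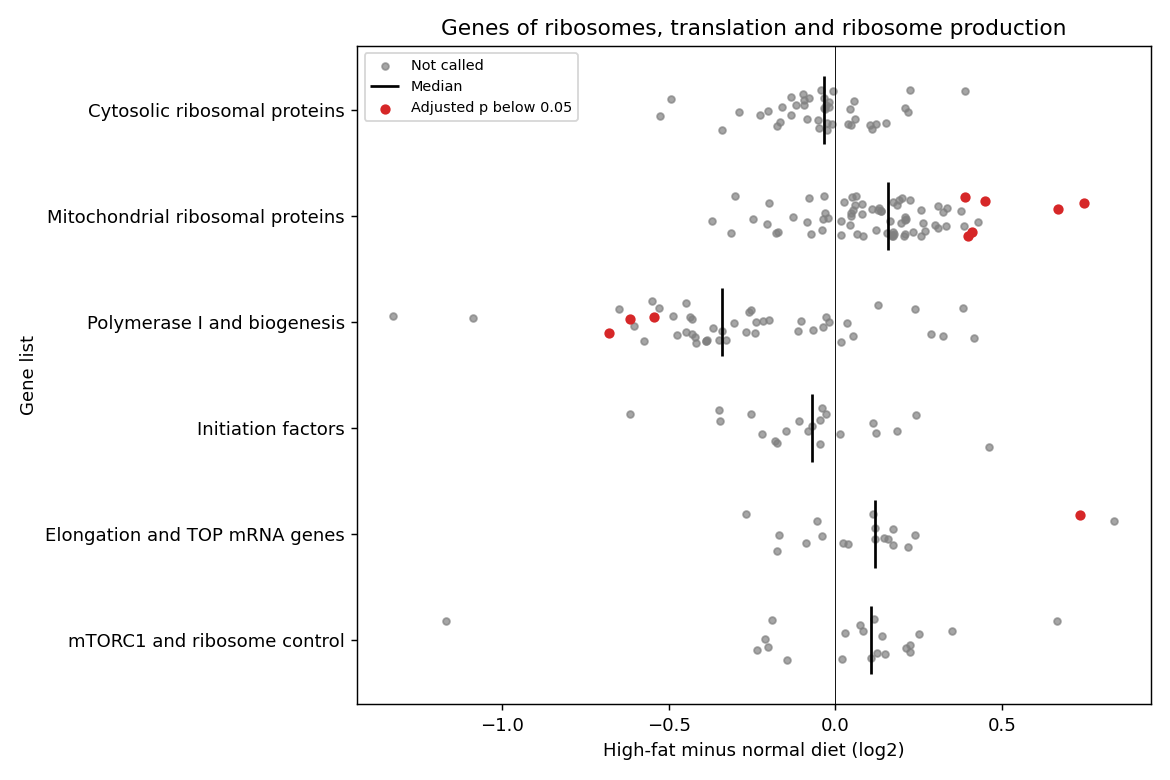
Differences between high-fat and normal diet livers (x axis, log2) for ribosomal protein genes and 5 lists of related genes, with 1 point per tested gene, a bar at the median and red points at an adjusted p below 0.05. Medians are -0.03 for cytosolic ribosomal proteins, 0.16 for mitochondrial ribosomal proteins and -0.34 for RNA polymerase I and biogenesis.

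Markers of other liver cells differed between the diets as well. Hepatocyte markers were at a median level of 13.35, and 1 of 8, Hnf4a, was called lower in high-fat livers (-0.69), against 1.73% of all genes. At an unadjusted p below 0.05 (limma) there were 4, Hnf4a, Cps1, Tat and Serpina1c, all lower, against 27.6% of all genes. Positive differences were found for 3 of the 8. The summed linear signal of the 8 hepatocyte markers was 93598 to 94381 in high-fat livers and 95444 to 100107 in normal diet livers. Of 8 markers of Kupffer cells and macrophages 5 rose (Cd68, Lyz2, Csf1r, Vsig4 and Adgre1), while 5.87% of all tested genes were called higher. Clec4f (0.07), Marco (-0.06) and Cd163 (-0.63) were not called. The summed linear signal of the 8 was 2781 to 3019 in high-fat livers and 1805 to 1985 in normal diet livers. Of 5 stellate cell markers 2 rose, beside the same 5.87% of all genes, with differences from -0.06 to 1.43. Their sum was 2008 to 2327 in high-fat livers against 1382 to 1421 in normal diet livers. Of 6 endothelial markers 1, Lyve1, rose, beside the same 5.87% of all genes. The sum of the 6 was 1063 to 1186 in high-fat livers and 915 to 1050 in normal diet livers. No tested marker of T cells (4), B cells (3), neutrophils (4), cholangiocytes (4) or erythroid cells (2) was called (limma), against 7.6% of all tested genes. Lists this short would hold few calls at that share. At an unadjusted p below 0.05 (limma) there were 2 of neutrophils, Camp (0.35) and S100a9 (-0.59), and 1 of cholangiocytes. Of all tested genes 27.6% were. Median levels of the first 4 lists lay between 4.75 and 5.65. The part of cell composition in the differences of ribosomal protein, biogenesis and mitochondrial ribosome genes was not tested.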

How the data were processed

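Per the submitters' processing notes, the authors made the deposited log2 values per probe set with RMA in Affymetrix Expression Console 1.0, and no scanner file was read. From 45101 deposited probe sets 64 controls were removed. Gene names came from the platform annotation, with 34945 probe sets of 1 symbol. A gene took the values of its brightest probe set on average, and was tested where these exceeded the array's 40th percentile in 3 or more of 6 arrays. limma 3.58.1 in R 4.3.3 (lmFit and eBayes, two-sided, Benjamini-Hochberg over 14071 genes, calls at an adjusted p below 0.05) fitted high-fat against normal diet without covariates. The fit was tested on simulated data. Python 3.11.15, pandas 2.3.3 and matplotlib 3.10.9 made summaries and figures. Start windows came from RefSeq (GRCm38.p6).

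The member genes, the companion lists and the markers were chosen with earlier results of these data known. Named were any called member, the 10 largest differences in each direction, the 3 highest and 3 lowest mean levels, fixed landmark genes and up to 3 members of each companion list with the smallest p. Alternatives changed the filter, the variance model, array weights, the scaling, the choice of probe set and the threshold, added the replicate number as a block, or left out an array.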

Additional observations from a re-analysis of the deposited data

How the results depend on the processing

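Across 18 settings besides the reported one, 666 values of member genes were computed and 2 passed the threshold: Rpl12 without normal diet 1 and Rpsa without normal diet 2. The count of member genes called was thus 0 to 1 over the arrays left out, and that of member probe sets 0 to 1 (Rpl12 without normal diet 1). After median centring 1 member probe set, of Rpl22, was called. With each array left out the median member difference ran from -0.12 to 0.03. Over all genes, leaving out an array gave 154 to 1241 calls, 112 to 935 of them higher and 42 to 306 lower, with the lowest counts when a high-fat array was missing. At an adjusted p below 0.01, 172 genes were called, 125 higher and 47 lower. Array weights gave 373 lower genes. Quantile normalization gave 597 higher and 299 lower genes, against 826 and 244. The cause of these shifts was not tested. Diets share replicate numbers, and deviations of same-numbered arrays correlated at -0.01, 0.04 and 0.10 across genes. Not every array correlated best with its own number. With so few arrays these weak correlations cannot decide whether the numbers pair the arrays, and the labels leave it open. With a replicate block 768 genes, 0 member genes and 0 member probe sets were called, and Myc was called. Signal near background limits Rpl12, Rps25 and Rpl14.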

Other observations

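A further 110 probe sets list a ribosomal protein symbol together with other symbols, so none of them is named for a gene here. Of 102 tested, 1 was called (limma), against 5.33% of all probe sets. At an unadjusted p below 0.05 (limma) there were 3, against 24.7% of all probe sets. Their median difference was -0.04, with a range from -0.35 to 1.08, and their median level was 10.95.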
